A study of Mus musculus with 12 samples.

Results

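The genes described here are the 10 VEGF and angiopoietin ligands and receptors *Vegfa*, *Vegfb*, *Vegfc*, *Vegfd*, *Pgf*, *Kdr*, *Flt1*, *Flt4*, *Angpt2* and *Tek*. They were chosen by name, and all 10 were found among the 55401 genes of the expression table. RNA was sequenced in bulk from 12 orthotopic tumors of 4T1, a mouse mammary carcinoma line, grown in Balb/c mice that were 6 to 8 weeks old when bought. Each group held 3 tumors: a control isotype (IgG1-Fc), recombinant IL10-Fc protein (IL-10-Fc), a CSF1R antibody (αCSF1R), and BF10, a fusion protein that joins interleukin-10 to a CSF1R antibody. CSF1R is the receptor through which macrophages receive their main survival signal. Every mouse carried the same tumor line, and treatment began at a tumor volume of 100 mm3. The sample labels give 6 doses while the series description gives fewer, so the number of doses is uncertain. Each tumor gave 1 library, and replicate numbers are those of the sample titles.

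VEGF ligands are secreted proteins that bind receptor tyrosine kinases on endothelial cells and drive the growth and leakiness of vessels. *Vegfa*, which hypoxia induces, acts mainly through KDR (VEGFR2). *Vegfb* and *Pgf* bind FLT1 (VEGFR1), which also has a soluble form that traps ligand, and *Vegfc* and *Vegfd* act through FLT4 (VEGFR3) on lymphatic vessels. The angiopoietins act on TEK (TIE2), where *Angpt1* stabilizes vessels and *Angpt2*, made by activated endothelium, can oppose it.

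Levels are given in TPM, the deposited FPKM values brought to a sum of 1000000 per library, a scale per transcript length. All 10 genes passed the filter of at least 1 TPM in at least 3 libraries, which left 15504 genes for testing. The libraries fell into sets by the sum of their deposited FPKM values. In 5 libraries (control replicates 4 and 7, IL-10-Fc replicate 7, αCSF1R replicate 8 and BF10 replicate 6) the sum was 782919 to 921581, and these are called higher-sum libraries. In the other 7, the lower-sum libraries, it was 609695 to 648413. Control had 2 higher-sum libraries of 3 and each treated group had 1, so group means and this split are partly confounded. The labels name no batch that matches the sets, and what made them was not tested. BF10 replicate 3 stood apart as well: its 7 neutrophil markers summed to 16498 TPM, beside 429 to 3346 in the other 11 libraries, and its 8 fibroblast markers to 10233 TPM, beside 1395 to 6791. Depth, estimated from the smallest steps between values, was 0.915 to 1.07 of the median library. The 8 epithelial tumor markers (*Krt8*, *Epcam* and others) and the 18 endothelial markers were above 0 in every library. In bulk tumor RNA, fewer cells of a type and less RNA per cell cannot be told apart.

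On GRCm38, *Vegfa* lies at chr17:46016993-46032369 on the minus strand, *Vegfb* at chr19:6982473-6987651 (minus), *Vegfc* at chr8:54077606-54187096 (plus), *Vegfd* at chrX:164373378-164402650 (plus) and *Pgf* at chr12:85166635-85177790 (minus). The receptor *Kdr* lies at chr5:75932827-75978458 and *Flt1* further along the same chromosome at chr5:147561604-147726011, both on the minus strand. *Flt4* lies at chr11:49609263-49652739 (plus), *Tek* at chr4:94739289-94874976 (plus) and *Angpt2* at chr8:18690263-18741562 (minus). *Angpt2* lies inside *Mcph1* on the opposite strand, and the exons of these genes do not overlap. The longest coding transcripts of the 5 ligands of the VEGF family ran from 1281 nt (*Vegfb*) to 3451 nt (*Vegfa*). Those of the VEGF receptors were longer, at 5924 nt (*Kdr*), 6255 nt (*Flt4*) and 6895 nt (*Flt1*), each with 30 exons. Because the values are per gene, the isoforms of *Vegfa* and the membrane and soluble forms of *Flt1* could not be separated.

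The bases just upstream of *Vegfa*, *Kdr* and *Flt1* are shown because these are the main ligand of the family and the receptors that bind it, and because their values moved most with the library sets. The sequences are from RefSeq (GRCm38.p6), written 5′ to 3′ along the minus strand on which all 3 genes lie, with annotated exon bases removed. Capitals mark the core of the hypoxia response element (ACGTG or GCGTG) and the GC box GGGCGG, on either strand.
*Vegfa*, chr17:46032378-46032627: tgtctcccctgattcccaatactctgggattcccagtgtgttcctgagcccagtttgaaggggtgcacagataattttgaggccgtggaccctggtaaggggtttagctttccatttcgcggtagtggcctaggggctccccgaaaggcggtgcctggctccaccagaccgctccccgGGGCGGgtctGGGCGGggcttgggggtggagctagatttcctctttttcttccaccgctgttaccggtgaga
*Kdr*, chr5:75978459-75978705: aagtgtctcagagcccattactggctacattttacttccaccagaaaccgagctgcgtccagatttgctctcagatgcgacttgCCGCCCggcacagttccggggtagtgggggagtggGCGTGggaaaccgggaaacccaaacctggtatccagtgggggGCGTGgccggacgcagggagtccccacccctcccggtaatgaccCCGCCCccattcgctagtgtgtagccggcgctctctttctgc
*Flt1*, chr5:147726012-147726261: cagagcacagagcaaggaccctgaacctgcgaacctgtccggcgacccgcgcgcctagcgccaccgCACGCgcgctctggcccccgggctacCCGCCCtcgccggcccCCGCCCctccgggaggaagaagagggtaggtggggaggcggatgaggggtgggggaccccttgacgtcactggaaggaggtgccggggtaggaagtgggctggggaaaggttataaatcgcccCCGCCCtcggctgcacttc
The *Vegfa* window held 2 GC boxes and neither hypoxia core. It covers only 250 bases, so sites further upstream were not searched. The *Kdr* window held 2 copies of GCGTG and 2 GC boxes, and the *Flt1* window held 1 copy of GCGTG, as its complement, 3 GC boxes and the letters TATAAA, here in lower case. Over the 11 windows that RefSeq gave for 9 of the 10 genes, 5 held ACGTG or GCGTG, 8 held GGGCGG and 2 held TATAAA. The *Flt4* window and both *Pgf* windows lay wholly in exons, and of the other 8 windows 4, 6 and 2 held these letters. Among all 32851 windows of the same length, exonic ones included, 38.6%, 32.7% and 12.4% held them. A second *Vegfa* window, at an internal start and mostly exonic, held 1 copy of each hypoxia core and 1 GC box and is not printed. A match is a description of the letters only. *Angpt2* had no window in this table.

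*Vegfa* was at 28.9, 56.5 and 10.7 TPM in control tumors (replicates 4, 5 and 7), 81.6, 67.7 and 31.4 with IL-10-Fc (2, 4 and 7), 139, 85.7 and 11.5 with αCSF1R (4, 6 and 8) and 71.5, 16.8 and 66.8 with BF10 (3, 6 and 7). The same replicate order is used for every gene below. The level spanned 13.0-fold over the 12 tumors, all groups overlapped, and the 5 lowest values were those of the higher-sum libraries. *Vegfb*, a ligand of FLT1, was steadier, with a span of 2.89-fold. Its levels were 26.3, 59.0 and 38.7 TPM in control, 61.2, 56.3 and 42.2 with IL-10-Fc, 63.9, 75.8 and 38.4 with αCSF1R, and 40.9, 52.7 and 70.8 with BF10. The groups overlapped here too, and the highest value was that of αCSF1R replicate 6.

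*Pgf*, placental growth factor, was at 26.9, 10.8 and 6.70 TPM in control, 15.0, 31.4 and 28.3 with IL-10-Fc, 29.6, 11.8 and 7.81 with αCSF1R, and 28.8, 17.6 and 12.1 with BF10. Every group held both high and low tumors, and higher-sum libraries were among both. The lymphangiogenic ligand *Vegfc* was at 6.73, 8.73 and 5.08 TPM in control, 9.55, 12.6 and 8.02 with IL-10-Fc, 15.4, 13.4 and 7.27 with αCSF1R, and 13.3, 6.79 and 10.1 with BF10. Control held the lowest value and αCSF1R the highest, with overlap between every pair of groups. Its relative *Vegfd* was at 2.61, 2.24 and 0.976 TPM in control, 3.35, 6.01 and 4.22 with IL-10-Fc, 7.02, 6.46 and 1.53 with αCSF1R, and 10.5, 2.59 and 3.29 with BF10. For *Vegfd* all 3 IL-10-Fc tumors lay above all 3 control tumors, which no other gene of the 10 showed in any of the 5 comparisons. Groups did not overlap, with IL-10-Fc higher, for 4.75% of all tested genes. Elsewhere 0 of the 10 genes had groups apart, beside 2.36% of all genes higher with BF10 than control, and 1.61% higher and 3.68% lower with αCSF1R. Between BF10 and IL-10-Fc 0.619% of all genes were apart and higher and 1.51% lower, and between BF10 and αCSF1R 4.33% higher and 1.58% lower.

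The receptor *Kdr* was at 0.987, 6.53 and 1.11 TPM in control, 6.64, 7.42 and 2.57 with IL-10-Fc, 6.75, 5.51 and 0.510 with αCSF1R, and 10.7, 1.18 and 3.77 with BF10. It spanned 20.9-fold, its 5 lowest values were the higher-sum libraries, and its highest was BF10 replicate 3. *Flt1* was at 3.90, 13.3 and 3.47 TPM in control, 14.8, 13.6 and 5.43 with IL-10-Fc, 20.7, 20.9 and 2.55 with αCSF1R, and 11.7, 3.98 and 12.1 with BF10. Its highest levels were the αCSF1R tumors 4 and 6, and its lowest was the third αCSF1R tumor, so that this group alone covered the whole range. *Flt4* was at 0.482, 2.06 and 0.643 TPM in control, 2.18, 2.82 and 0.766 with IL-10-Fc, 2.91, 2.13 and 0.271 with αCSF1R, and 6.08, 0.555 and 1.71 with BF10. It had the widest span of the 10 genes, 22.4-fold, with BF10 replicate 3 more than any other tumor.

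*Angpt2* was at 3.58, 10.1 and 2.71 TPM in control, 6.67, 8.70 and 5.13 with IL-10-Fc, 10.9, 8.61 and 4.60 with αCSF1R, and 13.1, 4.34 and 9.27 with BF10. Its receptor *Tek* was at 1.05, 2.27 and 0.832 TPM in control, 2.59, 2.75 and 1.66 with IL-10-Fc, 2.85, 2.44 and 0.391 with αCSF1R, and 4.29, 1.07 and 1.12 with BF10. Groups overlapped for both genes, and BF10 replicate 3 was the highest tumor for *Angpt2* and for *Tek*. In all, BF10 replicate 3 gave the highest value for 5 of the 10 genes, while control replicate 7 gave the lowest for 5 and αCSF1R replicate 8 for 4.

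**Figure D1:**
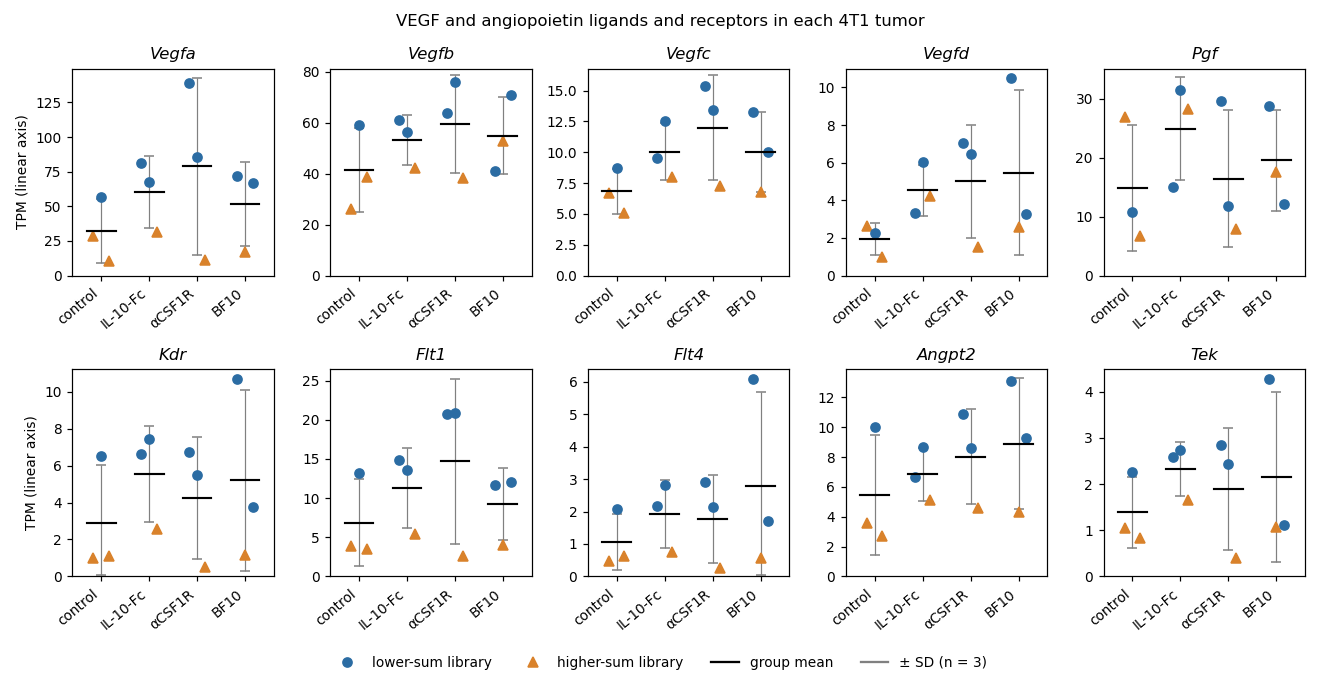
Each panel plots 1 gene in TPM on a linear axis that starts at 0, with 1 point per tumor, the group mean and its SD (n = 3), drawn to just above 0 where the SD exceeds the mean. Triangles mark the 5 higher-sum libraries, which were the 5 lowest points for *Vegfa*, *Vegfc*, *Kdr*, *Flt1*, *Flt4* and *Angpt2*, and the groups overlapped except for *Vegfd* between IL-10-Fc and control.

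By median level over the 12 tumors, *Vegfa* (61.7 TPM) and *Vegfb* (54.5) came first, followed by *Pgf* (16.3), *Flt1* (11.9), *Vegfc* (9.14), *Angpt2* (7.64), *Kdr* (4.64), *Vegfd* (3.32), *Tek* (1.97) and *Flt4* (1.89). *Vegfa* exceeded *Vegfb* in 6 of 12 libraries, *Flt1* exceeded *Vegfc* in 6 and *Kdr* exceeded *Vegfd* in 6, so these neighbours could not be ordered. *Tek* exceeded *Flt4* in 8 libraries, with a mean log2 ratio of 0.29 ± 0.57 (SD, n = 12), and *Pgf* exceeded *Flt1* in 9. The steps from *Vegfb* to *Pgf*, from *Vegfc* to *Angpt2* and from *Vegfd* to *Tek* held in 11 libraries each, and *Angpt2* exceeded *Kdr* in all 12. As a rough guide to precision, without a correction for effective transcript length, the lowest values corresponded to about 40.9 reads for *Flt4*, 43.8 for *Tek*, 50.4 for *Vegfd* and 72.8 for *Kdr*. Those of the other 6 genes corresponded to 243 reads or more.

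The first comparisons asked whether each treatment moved these genes against control. None of the 10 genes passed the threshold in any of them (limma, Benjamini-Hochberg adjusted p below 0.05 and at least 1.5-fold), and none had an unadjusted p below 0.05. With BF10, 0 of 10 genes passed, beside 0% of all tested genes higher and 0% lower. With IL-10-Fc, 0 of 10 passed, beside 0% higher and 0.00645% lower. With αCSF1R, 0 of 10 passed, beside 0% higher and 0.568% lower. The adjusted p of the 10 genes was 0.788 to 0.791 for BF10, 0.738 for IL-10-Fc and 0.893 to 0.93 for αCSF1R. Over all genes, 234, 224 and 537 had an unadjusted p below 0.05.

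All 10 differences from control lay above 0 in each of these comparisons, though 10, 9 and 8 did so for BF10, IL-10-Fc and αCSF1R when libraries were scaled by the median of ratios, and the middle of all genes lay above 0 as well. The median log2 difference of the 10 genes was 0.58 with BF10, 0.63 with IL-10-Fc and 0.56 with αCSF1R, beside 0.32, 0.35 and 0.24 over all tested genes. Median-of-ratios scaling brought the all-gene medians to 0.01, -0.01 and 0.03 and those of the 10 genes to 0.24, 0.33 and 0.35. The comparisons share their control tumors. Adipocyte markers lay the same way, with all 7 above 0 in each comparison and medians of 1.303, 0.77 and 1.25. They summed to 70.1 to 361 TPM in control, 137 to 421 with IL-10-Fc, 35.7 to 617 with αCSF1R and 242 to 566 with BF10. The 7 neutrophil markers had a median of 1.37 with BF10, which was 0.05 without BF10 replicate 3. The part of these cells in the levels of the 10 genes was not tested. Without BF10 replicate 3 the BF10 median of the 10 genes was 0.26, beside 0.20 over all genes. With the library set as a term in the model, the medians fell to 0.26, 0.27 and 0.25, beside 0.068, 0.10 and 0.0068 over all genes, and 9, 10 and 7 of the 10 genes lay above 0. None of the 10 passed the threshold under the set term either. Beside this, 0% of all genes were higher and 0.00645% lower with BF10, 0.0193% higher and 0.00645% lower with IL-10-Fc, and 0.0774% higher and 1.93% lower with αCSF1R. Taken apart, the lower-sum and the higher-sum libraries gave a difference of the same sign for 5 genes with BF10, 8 with IL-10-Fc and 3 with αCSF1R, with 1 or 2 tumors of each group in a set.

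The intervals were wide. *Vegfa* averaged 32.0 ± 23.1 TPM in control, 60.2 ± 25.9 with IL-10-Fc, 78.7 ± 64.0 with αCSF1R and 51.7 ± 30.3 with BF10 (SD, n = 3). On the log2(TPM + 1) scale, the difference from control was 1.06 with IL-10-Fc (SE 0.92, 95% interval -0.96 to 3.09), 0.97 with αCSF1R (-1.05 to 3.00) and 0.71 with BF10 (-1.32 to 2.73). The BF10 interval runs from 0.401-fold to 6.64-fold of control, so it includes both a fall and a rise of several fold. Single tumors moved these values: for BF10 the difference was 0.10 without control replicate 7 and 1.37 without BF10 replicate 6. For αCSF1R it was 0.28 without replicate 4 and 2.02 without replicate 8, and for IL-10-Fc 0.46 without control replicate 7 and 1.60 without control replicate 5. With the set term, the *Vegfa* differences were 0.40, 0.31 and 0.05, and the BF10 interval narrowed to 0.540-fold to 1.97-fold.

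*Vegfd* had the largest BF10 difference of the 10, 0.98 (SE 0.54, adjusted p 0.788), and with IL-10-Fc, where the groups did not overlap, it was 0.93 (SE 0.54, adjusted p 0.738). Without BF10 replicate 3 the BF10 difference of *Vegfd* was 0.46. *Vegfc* with αCSF1R was 0.70 (SE 0.36, adjusted p 0.893). Under the set term it was 0.49 (SE 0.20), with an unadjusted p of 0.0295 and an adjusted p of 0.497, the lowest adjusted p under the set term among the 10 genes. *Vegfb*, the least variable ligand, had differences of 0.41, 0.53 and 0.44 with IL-10-Fc, αCSF1R and BF10 (SE 0.36 each), and *Pgf* had 0.86, 0.15 and 0.51 (SE 0.58 each).

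Among the receptors, the *Kdr* difference was 0.95 with IL-10-Fc, 0.42 with αCSF1R and 0.65 with BF10 (SE 0.80 each). With the set term these were 0.37, -0.16 and 0.06, and the interval for BF10 ran from 0.636-fold to 1.71-fold. *Flt1* differed by 0.75, 0.81 and 0.47 (SE 0.76), and by 0.18, 0.24 and -0.10 with the set term. *Flt4* differed by 0.51, 0.35 and 0.67 (SE 0.60), *Tek* by 0.51, 0.19 and 0.31 (SE 0.47) and *Angpt2* by 0.43, 0.59 and 0.68 (SE 0.50). Without BF10 replicate 3, the BF10 difference was 0.03 for *Kdr*, 0.07 for *Flt4* and -0.14 for *Tek*, beside 0.65, 0.67 and 0.31 with it.

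**Figure D2:**
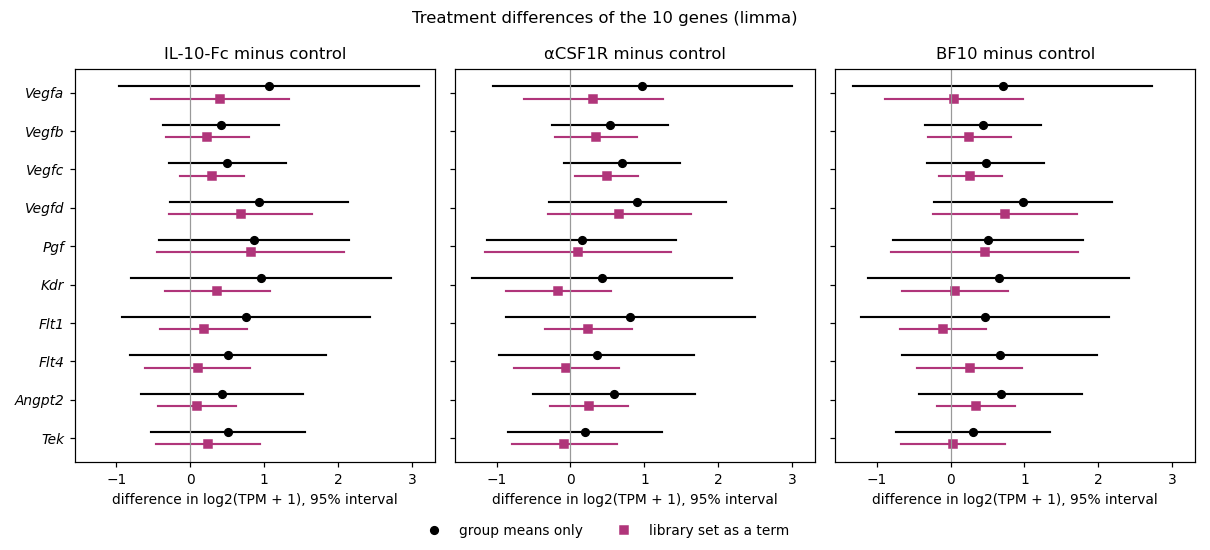
Points give the difference of each treatment from control in log2(TPM + 1) for each of the 10 genes, with 95% intervals from limma, for group means only (black circles) and with the library set as a term (squares). Every black point lies above 0 on this scaling (10, 9 and 8 of the 10 genes under median-of-ratios scaling) and every black interval includes 0. With the set term the points move towards 0 and the intervals narrow, and the only interval above 0 is that of *Vegfc* with αCSF1R.

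BF10 was then set against IL-10-Fc and αCSF1R, the agents it combines. In the first of these, 0 of 10 genes passed, beside 0% of all genes higher and 0% lower, and 4 of 10 lay above 0. In the second, 0 of 10 passed, beside 0.735% of all genes higher and 0% lower, and 6 of 10 lay above 0. The adjusted p from limma was 1 for each of the 10 genes in both. With the set term 0 of 10 passed in either, beside 0% of all genes against IL-10-Fc, and 2.77% higher and 0.0516% lower against αCSF1R. The differences between BF10 and IL-10-Fc ran from -0.36 (*Vegfa*, 95% interval -2.38 to 1.67) to 0.25 (*Angpt2*, -0.85 to 1.36). Between BF10 and αCSF1R they ran from -0.34 (*Flt1*, -2.02 to 1.34) to 0.36 (*Pgf*, -0.92 to 1.64). Within the lower-sum libraries, *Flt1* was at 11.7 and 12.1 TPM in the BF10 tumors and at 20.7 and 20.9 in the αCSF1R tumors, a difference of -0.76. Its adjusted p of 0.0742 was the lowest of any of the 10 genes in any treatment comparison and setting tried, and still missed the threshold. In the higher-sum libraries the order was the opposite, with *Flt1* at 3.98 TPM in the BF10 tumor and 2.55 in the αCSF1R tumor.

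The sets were defined by the FPKM sum, by which TPM values are divided, so their difference is given as a technical description and depends on the scaling. With group in the model, 7 of the 10 genes were lower in the higher-sum libraries past the threshold, beside 54% of all tested genes lower and 5.23% higher. *Vegfa* averaged 19.9 ± 9.71 TPM (SD, n = 5) in the higher-sum and 81.3 ± 27.2 TPM (SD, n = 7) in the lower-sum libraries, a log2 difference of -1.99 (SE 0.31, limma adjusted p 0.000172). *Kdr* averaged 1.27 ± 0.770 and 6.76 ± 2.10 TPM, a difference of -1.76 (adjusted p 6.65e-05), and *Flt1* 3.87 ± 1.04 and 15.3 ± 3.90 TPM, a difference of -1.71 (adjusted p 2.95e-05). The other genes past the threshold were *Flt4* (-1.23), *Angpt2* (-1.0), *Tek* (-0.82) and *Vegfc* (-0.62). *Vegfb* (-0.55, adjusted p 0.0183) missed the fold, and *Vegfd* (-0.74, adjusted p 0.0566) and *Pgf* (-0.14, adjusted p 0.765) missed the p. For 6 of the 10 genes the sets did not overlap, beside 48.8% of all genes that were lower and 6.23% that were higher in this way. The median difference was -0.91 for the 10 genes and -0.68 over all genes, and the latter was -0.33 with FPKM as deposited and -0.02 under median-of-ratios scaling. With FPKM as deposited 34.2% of all genes were lower and 12.3% higher, and under median-of-ratios scaling 19.8% were lower and 23.3% higher.

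Among the 10 genes, Spearman's rho of the set difference was -0.709 with transcript length and -0.018 with GC content. The 10 genes share their libraries. Neither rho was computed over all tested genes, so they do not show what goes with the split. The long receptors *Kdr*, *Flt1* and *Flt4* were among the most reduced, and *Pgf*, *Vegfb* and *Vegfc*, with shorter transcripts, the least. *Vegfa* fell outside this order, since it had the greatest difference on the log2(TPM + 1) scale at a transcript length of 3451 nt. That scale understates the fold of low genes, so the order, and with it each rho, depends on the scale. In TPM, the higher-sum and lower-sum means were 19.9 and 81.3 for *Vegfa*. They were 1.27 and 6.76 for *Kdr* and 0.544 and 2.84 for *Flt4*. Neither length nor GC content was tested as a cause. Under median-of-ratios scaling *Vegfa*, *Kdr*, *Flt1* and *Flt4* remained past the threshold while *Vegfb*, *Vegfc* and *Pgf* turned to 0.31, 0.16 and 0.67.

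**Figure D3:**
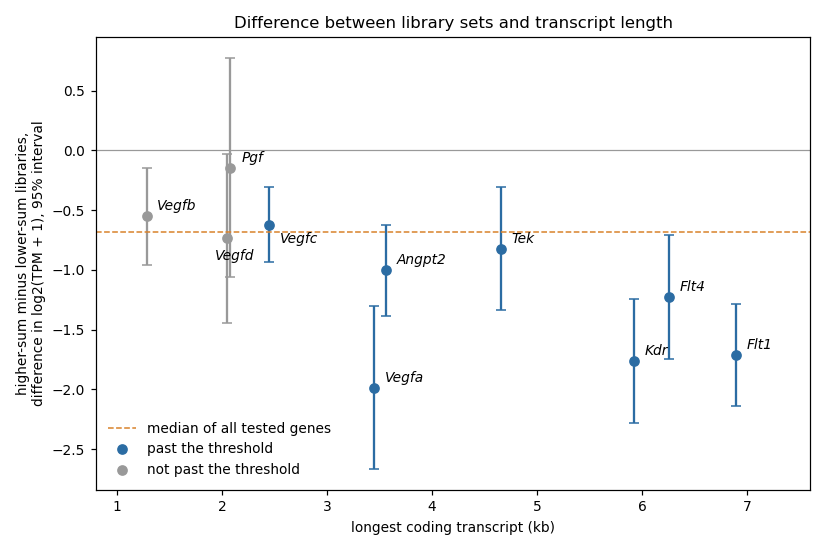
The plot sets the difference between higher-sum and lower-sum libraries in log2(TPM + 1), with group in the model and 95% intervals, against the length of each gene's longest coding transcript in kb. The 7 genes past the threshold lie below 0, *Vegfa*, *Kdr* and *Flt1* lie lowest, and the dashed line marks the median of all tested genes, -0.68. The scale understates the fold of low genes such as *Flt4*, *Tek* and *Kdr*.

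Likeness between genes was described by Pearson's r of log2(TPM + 1) over the 12 libraries after the mean of each library set was taken off. These libraries share treatments, and no p is given. BF10 replicate 3 weighs on many of the values, so r without it is given for the pairs and the marker lists. The endothelial receptors moved together: r was 0.95 between *Kdr* and *Tek* (0.92 without BF10 replicate 3), 0.82 between *Flt4* and *Tek* (0.84) and 0.80 between *Kdr* and *Flt4* (0.82). *Flt1* stood closer to *Vegfa*, with r = 0.76 (0.78), than to *Kdr*, with r = 0.31 (0.62). Among the ligands, r was 0.87 between *Vegfc* and *Vegfd* (0.90) and 0.80 between *Vegfd* and *Pgf* (0.80). *Vegfb* and *Flt4* had r = -0.54, which was -0.04 without BF10 replicate 3.

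Against lists of cell type markers, the median r of *Kdr* with the 18 endothelial genes was 0.88 and that of *Tek* 0.89, beside 0.29 and 0.25 with all tested genes. Without BF10 replicate 3 these were 0.85 and 0.87. These receptors were also like the 10 pericyte and mural genes. The median r was 0.83 for *Kdr* and 0.81 for *Tek* (0.83 and 0.84 without BF10 replicate 3). With the fibroblast genes it was 0.73 and 0.78, or 0.66 and 0.69 without BF10 replicate 3. *Flt4* had a median r of 0.71 with the endothelial, 0.76 with the mural and 0.72 with the fibroblast genes (0.79, 0.82 and 0.72 without BF10 replicate 3), so its likeness was not particular to endothelial genes. The endothelial median was 0.33 for *Flt1*, beside 0.37 with all genes, and 0.56 beside 0.42 without BF10 replicate 3. With the hypoxia response list the median of *Flt1* was 0.64, and 0.66 without BF10 replicate 3. *Vegfa* had a median r of 0.76 with the 16 genes of the hypoxia response list, beside 0.28 with all genes, and of 0.36 with the endothelial list. Without BF10 replicate 3 these were 0.77, 0.30 and 0.45. *Pgf* was most like the 8 fibroblast genes, with a median r of 0.87 beside 0.19 with all genes (0.87 and 0.22 without BF10 replicate 3). The high median r of *Flt4* with the neutrophil list, 0.85, was 0.36 without BF10 replicate 3.

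The genes most like each of the 10 were taken by the same r, out of all 15504 tested genes, so each is the highest of many values. Unless stated, these values include BF10 replicate 3. For *Vegfa* they were *Ero1l* (0.95), *Egln1* (0.94) and *Cald1* (0.91). *Ero1l* is the table's name for *Ero1a*, which the hypoxia response list already holds, and *Egln1*, an oxygen sensor, is itself induced by hypoxia. For *Kdr* they were *Ushbp1* (0.99), *Pkdcc* (0.96) and *Ptprb* (0.96), the last an endothelial phosphatase that acts on TEK. For *Tek* they were *Ptprm* (0.97), *Prr7* (0.97) and *Npr1* (0.96). For *Flt4* they were *Pard6g* (0.98), *Galnt18* (0.97) and *Bnc2* (0.97), or 0.89, 0.95 and 0.87 without BF10 replicate 3. For *Flt1* they were *Rnf24* (0.96), *Zfp41* (0.94) and *Dlg4* (0.94). For *Pgf* they included *Wt1* (0.97) and *Col5a2* (0.96), and for *Vegfd* they included *Ccn5* (0.94) and *Thbs3* (0.94). *Vegfb* was most like *Dagla*, *Grik5* and *Gcat* (0.93 to 0.94) and *Vegfc* most like *Wnt10a*, *Olfr1217* and *Gm45774* (0.90 to 0.91). *Angpt2* had the weakest best matches, the predicted genes *Gm47313*, *Gm47311* and *Gm44341* with r = 0.88 each. These 3 hold identical values in every library, so they count as 1 measurement.

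**Figure D4:**
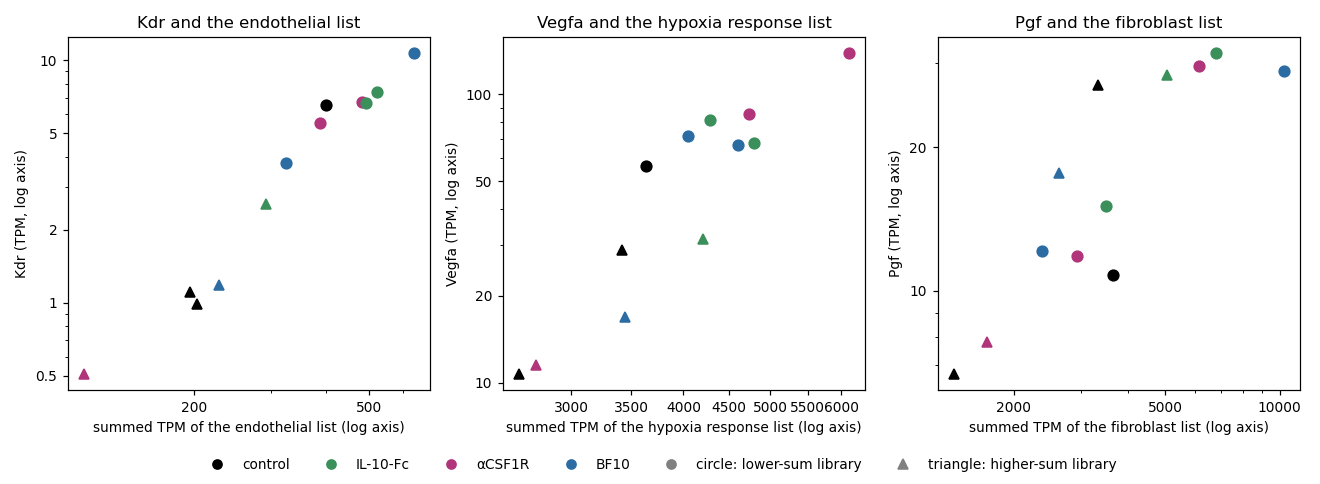
Each point is a tumor, on log axes, with the level of *Kdr*, *Vegfa* or *Pgf* in TPM against the summed TPM of the endothelial, hypoxia response or fibroblast list. Colors mark the groups and triangles the higher-sum libraries; *Kdr* rises with the endothelial sum from 0.510 TPM at 112 TPM in αCSF1R replicate 8 to 10.7 TPM at 634 TPM in BF10 replicate 3, and groups are mixed along each trend.

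Partners of the pathway were taken from a list of 12 genes that act beside the 10, of which 11 were tested. None passed the threshold against control or between BF10 and its parts, and 9 were lower and 1 higher in the higher-sum libraries, beside 54% and 5.23% of all genes. Under median-of-ratios scaling 6 were lower and 1 higher, beside 19.8% and 23.3%. The highest difference from control was *Nrp2* with BF10 (0.80, and 0.56 without BF10 replicate 3) and αCSF1R (1.02) and *Cdh5* with IL-10-Fc (1.09). The exception was *Angpt1*, the agonist ligand of TEK. It was at 11.2, 6.97 and 19.6 TPM in control, 5.39, 3.52 and 4.98 with IL-10-Fc, 3.50, 10.5 and 36.4 with αCSF1R, and 3.13, 6.33 and 5.78 with BF10. All IL-10-Fc tumors and all BF10 tumors lay below all control tumors, with differences of -1.18 (SE 0.66, limma adjusted p 0.738) and -1.10 (SE 0.66, adjusted p 0.788). Without BF10 replicate 3 the BF10 difference of *Angpt1* was -0.84. Groups did not overlap, with the treated group lower, for 1.78% and 1.17% of all genes. *Angpt1* was higher in the higher-sum libraries by 1.00 (adjusted p 0.0275), and with the set term its treatment differences were -0.85 and -0.76. *Nrp2*, a coreceptor for VEGF-C, ran from 17.1 to 110 TPM, and *Ccbe1*, needed to process VEGF-C, fell furthest between the sets, by 2.25 on the log2 scale.

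The lists below, like that of the partners, were chosen with earlier results known and are described by counts and medians. Genes that respond to VEGF or mark tip cells (14 tested), the 16 hypoxia response genes and the 10 pericyte and mural genes gave no call against control or between BF10 and its parts. The largest differences from control in the first list were *Nr4a1* with BF10 (1.24), *Pdgfb* with IL-10-Fc (1.52) and *Adamts1* with αCSF1R (1.03), and the lowest were *Kcne3* with BF10 (-0.73) and IL-10-Fc (-0.04) and *Cxcr4* with αCSF1R (-0.88). The *Nr4a1* difference was 0.64 without BF10 replicate 3. The medians of the hypoxia response list were 0.24 with BF10, 0.55 with IL-10-Fc and 0.52 with αCSF1R, beside 0.32, 0.35 and 0.24 over all genes. Under median-of-ratios scaling they were -0.14, 0.10 and 0.28. *Adm* was highest with BF10 (1.07) and IL-10-Fc (1.20), and *Ndrg1* with αCSF1R (0.93), while *Ankrd37* was lowest with BF10 (-0.32), IL-10-Fc (0.07) and αCSF1R (-0.28). The BF10 difference of *Adm* was 0.42 without BF10 replicate 3. In the mural list the smooth muscle actin gene *Acta2* was highest with BF10 (1.283, and 0.45 without BF10 replicate 3) and IL-10-Fc (1.76) and *Pdgfrb* with αCSF1R (0.51). The lowest were *Des* with BF10 (0.17) and αCSF1R (-0.51) and *Abcc9* with IL-10-Fc (0.35). Between the sets 12 of the 14 VEGF response genes, 8 of the 16 hypoxia genes and 8 of the 10 mural genes were lower in the higher-sum libraries past the threshold, beside 54% of all genes, so that the hypoxia share was near the background. Under median-of-ratios scaling 3, 6 and 4 were lower, and 1 VEGF response gene and 5 hypoxia genes were higher, beside 19.8% of all genes lower and 23.3% higher.

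The endothelial list, the cells in which most of these receptors act, gave no call against control either. Its summed level was 195 to 399 TPM in control, 292 to 521 with IL-10-Fc, 112 to 482 with αCSF1R and 227 to 634 with BF10. The highest differences from control were *Erg* with BF10 (0.89), *Ecscr* with IL-10-Fc (1.10) and *Mmrn2* with αCSF1R (0.45), and the lowest were *Emcn* (-0.16 and 0.13) and, with αCSF1R, *Sox18* (-0.53). The BF10 value of *Erg* was 0.22 without BF10 replicate 3. In BF10 against αCSF1R all 18 endothelial genes lay above 0, or 17 under median-of-ratios scaling, where *Emcn* was at -0.05, with a median of 0.40 beside 0.06 over all genes and none past the threshold. *Plvap*, a protein of vessel fenestrae, was highest at 0.66 and *Emcn* lowest at 0.09. Without BF10 replicate 3, 5 of the 18 lay above 0 and the median was -0.06 beside -0.03 over all genes. *Plvap* was then at 0.07 and *Emcn* at -0.08. The list was not refitted without any other tumor, and αCSF1R replicate 8 had the lowest endothelial sum, 112 TPM. In the same comparison *Kdr*, *Flt4* and *Tek* differed by 0.23, 0.31 and 0.11 and *Flt1* by -0.34. Without αCSF1R replicate 8 *Kdr* was at -0.52, *Tek* at -0.35 and *Flt1* at -1.22. *Flt4* was at -0.28 without BF10 replicate 3. Lymphatic markers were uneven. *Prox1*, the factor that defines lymphatic endothelium, was at 0.0314 to 0.985 TPM and did not pass the filter. *Pdpn*, which other cells also express, was at 9.59 to 73.3 TPM, and *Ccl21a* ran from 0.0628 TPM to 75.4 in BF10 replicate 3 and 190 in control replicate 7. Of the 6 lymphatic genes 4 were tested, with none past the threshold, and *Pdpn* had the highest and *Ccl21a* the lowest difference from control with each treatment.

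Macrophages, which αCSF1R targets and which can secrete VEGF ligands, were the only cell type, of the 8 whose marker lists were examined, with markers past the threshold in a treatment comparison. In αCSF1R tumors 7 of the 12 macrophage genes were lower than control, beside 0.568% of all genes, and 11 with the set term, beside 1.93%. The largest differences were *C1qc* at -4.05, *C1qa* at -3.98, *Msr1* at -3.75, *C1qb* at -3.47, *Fcgr1* at -3.01 and *Mrc1* at -2.96, and the smallest was *Mertk* at -0.41. Against αCSF1R, BF10 tumors had 8 of the 12 higher, beside 0.735% of all genes, 12 with the set term, beside 2.77%, and 6 without BF10 replicate 3. The list summed to 91.3 to 284 TPM with αCSF1R and to 1578 to 2337 TPM in the other groups. In these same tumors the 10 ligands and receptors overlapped with control, and the part of macrophages in their levels was not tested.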

How the data were processed

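TRIzol-extracted tumor RNA was turned into stranded mRNA libraries by the authors, who sequenced on a NextSeq 550 and aligned to mm10 (GRCm38.101). The submitters' processing notes name STAR 2.7.5a, RSEM 1.3.3 and DESeq2 1.28.0. The table used holds deposited FPKM values for 55401 genes in 12 libraries. Another 4 tables hold the authors' own DESeq2 fold changes and p-values and were not used. A model for counts was not used, since FPKM is a scaled unit.

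FPKM values were rescaled to 1000000 per library (TPM). Genes with TPM of at least 1 in at least 3 libraries were tested on log2(TPM + 1), which understates the fold of low genes, with limma 3.58.1 (eBayes with trend, R 4.3.3). The fit had 1 mean per group over all 12 libraries and 8 residual degrees of freedom (7 with a term for the library set, split at an FPKM sum of 700000). p-values were Benjamini-Hochberg adjusted over 15504 genes. All adjusted p-values in the text are from limma, and genes were called at 1.5-fold or more with adjusted p under 0.05. The tests were two-sided and were checked on simulated data. The p-values rest on the spread between libraries of the same group. Without the set term that spread includes the split into library sets. For *Vegfa*, BF10 against control, the SE was 0.92 without the term and 0.42 with it.

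The 10 genes and all lists were chosen with earlier results of these data known. Text names all 10 genes, list genes past the threshold (up to 6 per list), the extremes of each described list and comparison, and the 3 genes most like each of the 10. Some of the latter are not reported here. Gene positions are from GENCODE M21 (GRCm38). Alternatives tried were another pseudocount, other scalings, no filter, the set as a term, the lower-sum libraries alone, only the groups compared, a replicate block and leaving out each library. The scalings of the gene lists and their values without BF10 replicate 3 were added after seeing the data.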

Additional observations from a re-analysis of the deposited data

How the results depend on the processing

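Across 8 alternatives and 12 fits that each left out 1 library, 0 of the 10 genes passed the threshold in each of the 5 treatment comparisons. The lowest adjusted p over these settings (limma) was 0.349 for BF10 (*Vegfb*) and 0.318 for IL-10-Fc (*Vegfa*), both without control replicate 5, 0.244 for αCSF1R (*Vegfa*, without replicate 8), 1 between BF10 and IL-10-Fc, and 0.0742 between BF10 and αCSF1R. Of 80 values per comparison under the alternatives, 5, 3, 8, 5 and 11 changed sign, in the order BF10, IL-10-Fc and αCSF1R against control, then BF10 against IL-10-Fc and against αCSF1R. In the set difference 4 to 7 of the 10 genes passed over the alternatives and 6 to 8 when a library was left out, with 4 under median-of-ratios scaling. Same-numbered tumors had correlations of deviations of -0.66 to 0.42 over 7 pairs, beside -0.80 to 0.78 over 47 other pairs, so the numbers were not read as pairs. With the replicate block, 0 genes passed in each treatment comparison and 7 in the set difference. The consensus correlation of that block was -0.37, or -0.11 with the set term, so it held no likeness of same-numbered tumors. The cause of the changes between settings was not tested. With FPKM as deposited, log2 differences that changed sign were those for αCSF1R against control *Pgf* -0.028, and for the set difference *Pgf* 0.26. With the library set as a term, log2 differences that changed sign were those for BF10 against control *Flt1* -0.10, and for αCSF1R against control *Flt4* -0.056, *Kdr* -0.16, *Tek* -0.081. With median-of-ratios scaling, log2 differences that changed sign were those for IL-10-Fc against control *Vegfb* -0.025, and for αCSF1R against control *Pgf* -0.083, *Tek* -0.018, and for BF10 against IL-10-Fc *Vegfc* 0.033, and for BF10 against αCSF1R *Angpt2* -0.039, and for the set difference *Pgf* 0.67, *Vegfb* 0.31, *Vegfc* 0.16. With the replicate block, log2 differences that changed sign were those for BF10 against control *Pgf* -0.11, and for BF10 against IL-10-Fc *Flt4* -0.080, *Vegfd* -0.22, and for BF10 against αCSF1R *Angpt2* -0.18, *Flt4* -0.042, *Kdr* -0.16, *Pgf* -0.57, *Tek* -0.22, *Vegfb* 0.029, *Vegfd* -0.42. Within the lower-sum libraries, log2 differences that changed sign were those for BF10 against control *Flt1* -0.15, *Kdr* -0.011, *Vegfb* -0.13, and for IL-10-Fc against control *Angpt2* -0.36, *Vegfb* -0.0084, and for αCSF1R against control *Angpt2* -0.050, *Kdr* -0.084, and for BF10 against IL-10-Fc *Vegfb* -0.12, *Vegfc* 0.070, and for BF10 against αCSF1R *Pgf* -0.0029, *Tek* -0.12, *Vegfd* -0.14. Leaving out each library in turn, differences whose sign changed ran for BF10 against control as *Tek* -0.14 to 0.56. For αCSF1R against control they were *Kdr* -0.011 to 1.17, *Pgf* -0.36 to 0.67, *Tek* -0.077 to 0.66. For BF10 against IL-10-Fc they were *Angpt2* -0.056 to 0.64, *Flt1* -0.70 to 0.17, *Flt4* -0.44 to 0.66, *Kdr* -0.92 to 0.29, *Tek* -0.65 to 0.022, *Vegfa* -0.76 to 0.30, *Vegfb* -0.18 to 0.21, *Vegfc* -0.23 to 0.21, *Vegfd* -0.46 to 0.38. For BF10 against αCSF1R they were *Angpt2* -0.22 to 0.48, *Flt1* -1.22 to 0.11, *Flt4* -0.28 to 0.81, *Kdr* -0.52 to 0.82, *Pgf* -0.031 to 0.87, *Tek* -0.35 to 0.38, *Vegfa* -1.31 to 0.43, *Vegfb* -0.37 to 0.11, *Vegfc* -0.52 to 0.0081, *Vegfd* -0.46 to 0.40. For the set difference they were *Pgf* -0.36 to 0.20. With 3 tumors a group and SE of 0.36 to 0.92 on the log2 scale, modest changes of these genes were not detectable. For the most variable of them, such as *Vegfa*, changes of several fold could be missed too. The read estimates cover counting error only and are rough.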
